A study of Mus musculus with 35 samples.

Results

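Hippocampal mRNA was compared between mice killed 120 h into the aftermath of status epilepticus (SE), a prolonged seizure evoked here with pilocarpine, and control mice whose libraries carry the same prefix in the count table. The libraries were chosen by their labels, 3 of the 120 h SE group and 3 controls, which makes 6 of the 19 mRNA libraries of the series. Every gene in the count table was taken, and 15996 of the 43629 gene identifiers had enough reads to be tested.

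The study followed gene expression in the mouse hippocampus through the latent period, the seizure-free interval between a first prolonged seizure and the later appearance of spontaneous seizures. SE mice were C57BL/6j animals of both sexes, aged 6 to 7 weeks, that received intraperitoneal pilocarpine, an agonist of muscarinic acetylcholine receptors, with a first dose of 350 mg/kg that was followed by further injections until seizures began. Control mice received the saline vehicle instead. All mice of both groups, per the methods, were first given scopolamine, a muscarinic antagonist that limits effects outside the brain. RNA with a poly(A) tail came from the left hippocampus. The 3 controls also served the 36 h group, so no control of the 120 h time alone exists in this comparison. Their labels differ: they carry the label 36 h, source names that span 36 to 120 hours, and t0 in the count table. The time at which the controls were killed is therefore not settled by the labels.

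Several of the gene groups described here have well-known controls. Clock output genes such as Dbp and the Rev-erb genes are switched on every day by CLOCK and BMAL1 acting on E-box sequences and are held back by the PER and CRY proteins. Cytosolic chaperones are induced by HSF1, chaperones of the endoplasmic reticulum (ER) by the unfolded protein response, and metallothioneins by metals and glucocorticoids. At excitatory synapses, Homer and Shank proteins tie glutamate receptors to calcium stores and to the cytoskeleton.

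The controls held 14694019 to 21752867 counts and the SE libraries 14271801 to 22140681. Tissue markers were present in each of the 6 libraries: Prox1 of dentate granule cells lay between 81.6 and 117 CPM (counts scaled to a common library size, here with the trimmed mean of M values), Slc17a7 of glutamatergic neurons between 887 and 1291, and Gad1 of GABAergic neurons between 320 and 420. One library stood apart. SE replicate 3 carried choroid plexus, the epithelium of the ventricles, which lies against the hippocampus: the 25 choroid plexus markers averaged 5.58 on the log2 CPM scale, against 1.31 and 1.48 in the other SE libraries and 1.33 to 1.58 in the controls. Its summed CPM over the whole marker list was 9832, against 343 to 492 in the other 5 libraries, and Ttr stood at 6515 CPM there and at 28.6 to 102 elsewhere. Of the 36 h SE libraries, replicates 1 and 2 carried choroid plexus too, at 5.50 and 5.43, and replicate 3 did not, at 1.12. Values without SE replicate 3 are given beside the results it moved most. An alternative fit, given at the end, took the mean log2 CPM of the choroid plexus markers (the choroid plexus score) as a covariate. Beyond that, the part of choroid plexus in the other results was not tested. The sex listed by the study was male, female and male for the controls and male, male and female for the SE mice. However, control replicate 3, listed as male, held 13899 reads of Xist and 1 of Ddx3y. Control replicate 2 and SE replicate 3, listed as female, held 8980 and 10632 reads of Xist and 2 and 0 of Ddx3y.

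At 120 h, 9 genes passed an adjusted p of 0.05 in edgeR's quasi-likelihood test, 0.0563% of the genes tested. Dbp, Nr1d1, Pdzd2 and Tsc22d3 rose (4 genes, 0.0250%), and Homer1, Mdga1, Khdrbs3, Cldn5 and Sema3e fell (5 genes, 0.0313%). Dbp and Nr1d1 encode transcription factors of the circadian clock output, and Tsc22d3 encodes GILZ, a protein induced by glucocorticoids. Among the genes that fell, Homer1 encodes a postsynaptic scaffold, Mdga1 a membrane protein that binds neuroligins, Khdrbs3 the RNA-binding protein SLM2, Cldn5 the claudin of endothelial tight junctions and Sema3e a secreted guidance cue. With edgeR's likelihood ratio test, which the study's methods use, 36 genes rose (0.225%) and 40 fell (0.250%). With DESeq2, 43 rose (0.269%) and 101 fell (0.631%). All 9 genes were among those called by both. At an unadjusted p under 0.05 in the quasi-likelihood test, 4.54% of genes were higher and 5.06% lower. These shares over all genes tested are the background for the calls of each list below. Without SE replicate 3 the quasi-likelihood test called Dbp and Rbm3 only, and the adjusted p of the other 8 genes lay between 0.0610 and 0.0947. On NCBIM37, the build named for the alignment, and with the gene models of GENCODE M1, which do not name every identifier of the count table, these genes span Dbp at chr7:52960458-52965525 (plus strand), Homer1 at chr13:94073712-94174917 (plus strand), Tsc22d3 at chrX:137074067-137135198 (minus strand), Mdga1 at chr17:29964901-30107032 (minus strand), Khdrbs3 at chr15:68758850-68923942 (plus strand), Nr1d1 at chr11:98629246-98636647 (minus strand), Pdzd2 at chr15:12286809-12669679 (minus strand), Cldn5 at chr16:18776940-18778353 (plus strand) and Sema3e at chr5:14025276-14256689 (plus strand).

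**Figure D1:**
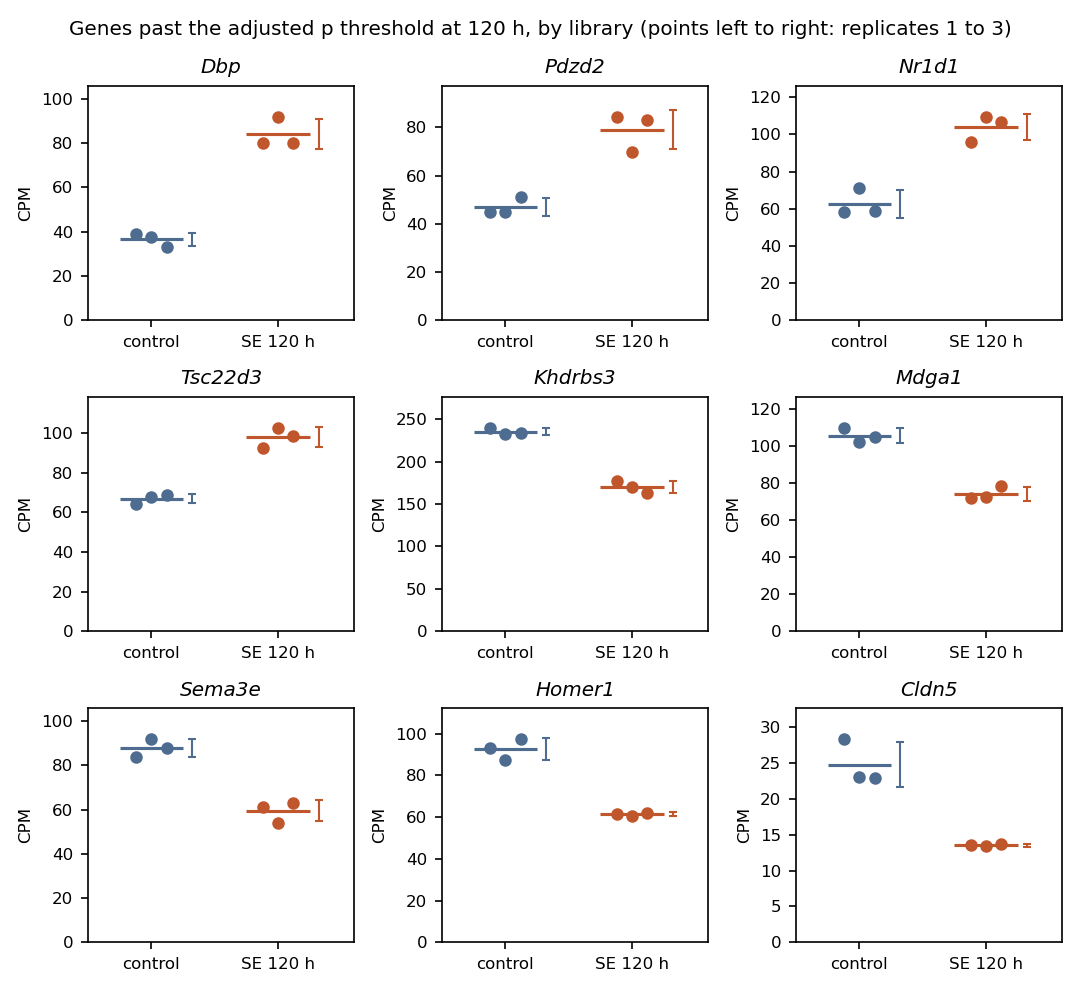
Expression of the 9 genes past the adjusted p threshold, in CPM (vertical axis, from 0), for the 3 controls (blue) and the 3 SE libraries of 120 h (orange). Points are libraries, horizontal lines group means and bars the standard deviation. In each panel the groups are separate, from Dbp, with a mean of 36.6 in controls and 84.1 after SE, to Cldn5, with 24.7 and 13.5.

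Dbp, the gene of a PAR bZIP activator, showed the smallest p of all genes. It stood at 39.0, 37.7 and 33.2 CPM in the controls and at 80.1, 92.0 and 80.2 CPM in the SE libraries. All 3 SE libraries were thus more than 80 CPM and all controls under 40 CPM. This made a log2 fold change of 1.20 ± 0.08 (± is the standard error throughout, n = 3 and 3, adjusted p = 0.00402 in the quasi-likelihood test). It was the only one of the 9 genes that kept its call whichever library was left out, with adjusted p between 0.00528 and 0.0455.

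Nr1d1, which encodes the repressor Rev-erb alpha, stood at 58.3, 71.1 and 58.6 CPM in the controls and 96.1, 110 and 107 CPM after SE. The log2 fold change was 0.74 ± 0.09 (adjusted p = 0.0461). Its relative Nr1d2, encoding Rev-erb beta, stood at 65.2, 63.4 and 69.1 CPM in controls and 86.2, 108 and 88.2 CPM after SE (log2 fold change 0.52 ± 0.09, adjusted p = 0.144). Gm129, now named Ciart, encodes a repressor of CLOCK and BMAL1. It stood at 8.55, 10.5 and 7.47 CPM in controls and 20.3, 21.0 and 15.4 CPM after SE (log2 fold change 1.11 ± 0.16, adjusted p = 0.0868). None of these 3 genes had a control library that reached the lowest SE library.

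Of the 9 clock output genes tested, 6 had every SE library above every control, or 66.7%, against 7.29% of all genes tested. These were Dbp, Gm129, Nr1d1, Nr1d2, Usp2 and Hlf. The remaining members of the list were Tef (0.05 ± 0.06), another PAR bZIP gene at 362 to 394 CPM in all 6 libraries, Wee1, and Nfil3, the repressor that competes with DBP for its sites. Nfil3 lay on the opposite side, with every SE library below every control. The median of the list was 0.34, against 0.01 over all genes, and without SE replicate 3 it was 0.33.

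Of the 15 core clock genes, 3 had every SE library above every control (20%, against 7.29% of all genes). In 1 every SE library lay below (6.67%, against 8.20%), and the median was 0.01. No core clock gene passed the quasi-likelihood test, 3 higher and 1 lower had an unadjusted p under 0.05 (4.54% and 5.06% over all genes), and 2 were called higher in the likelihood ratio test and 3 by DESeq2. Bhlhe41, the repressor DEC2, stood at 22.8, 23.4 and 26.1 CPM in controls and 35.9, 41.7 and 35.2 CPM after SE (log2 fold change 0.64 ± 0.09, adjusted p = 0.0868). Per3 lay at 0.40 ± 0.08 (adjusted p = 0.180) and Per1 at 0.36 ± 0.10 (adjusted p = 0.344), whereas Per2 stood at 44.2 to 49.6 CPM in all 6 libraries. Arntl, the gene of BMAL1 itself, was at 36.4, 34.2 and 44.8 CPM in controls and 30.5, 28.9 and 28.4 CPM after SE (log2 fold change -0.39 ± 0.11, adjusted p = 0.345). Arntl was therefore the lone core gene whose SE libraries all lay under the controls.

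The values at 36 h, measured against the same 3 controls, lay on the other side for most of these genes. Over all genes, 4 of 15850 passed the test at 36 h, all of them higher (0.0252%). The log2 fold change at 36 h was -0.27 for Dbp, -0.24 for Nr1d1, -0.30 for Nr1d2, -0.51 for Gm129, -0.47 for Hlf and -0.37 for Per3. Set directly against the 36 h SE libraries, in which the controls cancel, Dbp was higher at 120 h by 1.47 (adjusted p = 6.28e-05), Gm129 by 1.62, Nr1d1 by 0.98, Per3 by 0.77 and Hlf by 0.73 (adjusted p = 0.00606 for each of these 4), and Nr1d2 by 0.82 (adjusted p = 0.0104). In that contrast 10 of 16239 genes were higher at 120 h (0.0616%) and 9 were lower (0.0554%). Mice were housed under a light and dark cycle, and the hour of the day at which each was killed is not given in the sources used here. A time of 120 h returns to the hour of onset and 36 h does not. Time after SE and hour of the day therefore cannot be told apart, for clock genes or for any other gene compared here.

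**Figure D2:**
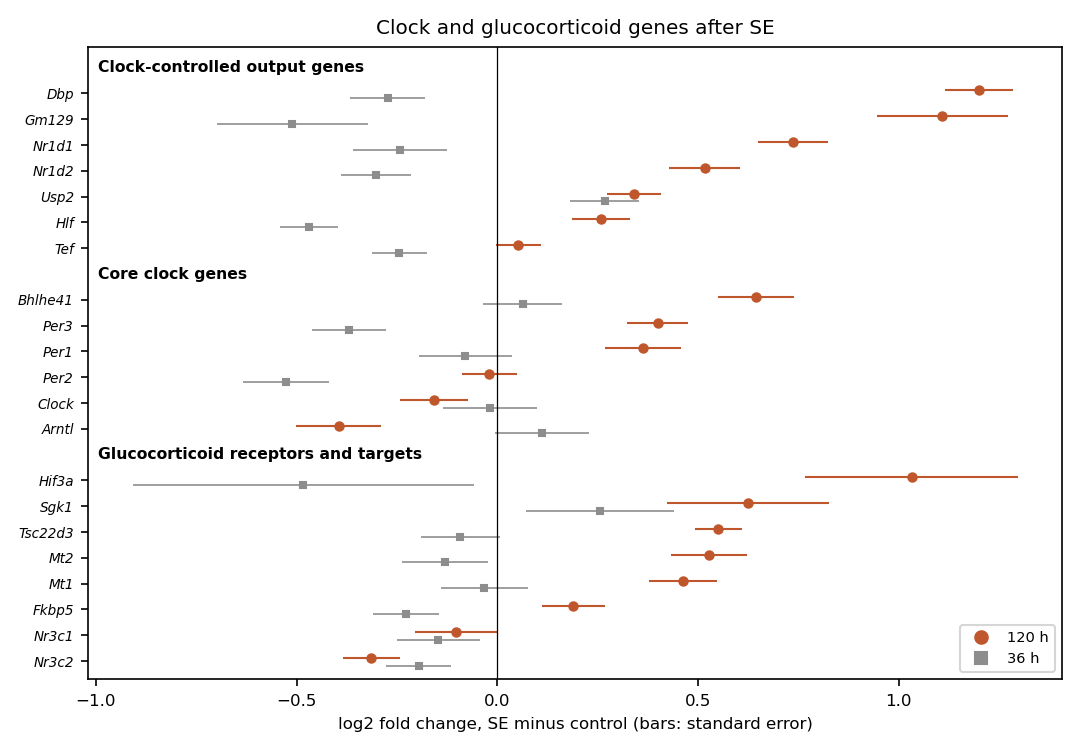
Log2 fold change of SE over control (horizontal axis) with its standard error for named members of the clock output, core clock and glucocorticoid lists (the rest of each list is not plotted), at 120 h (orange circles) and at 36 h (grey squares), both against the same 3 controls. Dbp lies at 1.20 at 120 h and -0.27 at 36 h, and Tsc22d3 at 0.55 and -0.09.

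The start regions of 4 of these genes are shown for the E-box, the site of CLOCK and BMAL1 (CACGTG, its own reverse complement, capitals where present). They come from RefSeq on GRCm38.p6, each from 250 bases before to 50 bases after a gene start: Dbp at chr7:45704997-45705296, plus strand, Gm129 at chr3:95882179-95882478, minus strand, Per1 at chr11:69098699-69098998, plus strand, and Bhlhe41 at chr6:145865371-145865670, minus strand.
Dbp: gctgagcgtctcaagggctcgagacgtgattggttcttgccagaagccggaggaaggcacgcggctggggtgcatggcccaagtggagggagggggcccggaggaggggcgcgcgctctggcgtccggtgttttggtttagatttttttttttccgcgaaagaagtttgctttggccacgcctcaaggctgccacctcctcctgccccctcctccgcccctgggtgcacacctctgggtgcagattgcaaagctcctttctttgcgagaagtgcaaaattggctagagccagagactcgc
Gm129: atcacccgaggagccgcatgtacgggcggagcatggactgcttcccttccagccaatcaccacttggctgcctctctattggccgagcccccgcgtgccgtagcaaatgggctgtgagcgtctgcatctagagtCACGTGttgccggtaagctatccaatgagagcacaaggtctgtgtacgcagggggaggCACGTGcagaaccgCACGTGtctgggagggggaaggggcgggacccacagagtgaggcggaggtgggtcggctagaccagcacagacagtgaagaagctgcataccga
Per1: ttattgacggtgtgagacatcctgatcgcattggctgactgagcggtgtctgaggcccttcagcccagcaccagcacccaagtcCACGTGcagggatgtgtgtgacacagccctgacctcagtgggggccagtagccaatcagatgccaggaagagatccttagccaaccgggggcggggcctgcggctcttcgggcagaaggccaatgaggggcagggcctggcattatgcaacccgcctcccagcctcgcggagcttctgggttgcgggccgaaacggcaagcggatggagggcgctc
Bhlhe41: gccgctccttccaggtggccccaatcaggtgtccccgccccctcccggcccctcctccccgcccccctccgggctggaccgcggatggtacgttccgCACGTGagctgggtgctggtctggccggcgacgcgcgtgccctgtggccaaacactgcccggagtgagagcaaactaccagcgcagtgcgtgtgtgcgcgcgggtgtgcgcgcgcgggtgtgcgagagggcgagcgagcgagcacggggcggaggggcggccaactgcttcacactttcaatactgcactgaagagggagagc

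Gm129 carried 3 E-boxes within this window, Per1 and Bhlhe41 carried 1 each, and the window of Dbp, the gene with the smallest p, held none. Over all 32851 start regions of the reference, 7.15% held an E-box. Of the clock output list 8 genes matched an entry and 2 of them, Gm129 and Tef, had the sequence, and of the core clock list 11 matched and 3 had it. A gene was counted if any of its start regions held the sequence, whereas the share over all is of single start regions, so the units differ. A match is a match of letters only.

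Among the genes of the glucocorticoid list, Tsc22d3 alone passed the test. Of 19 tested genes of this list, 9 had every SE library above every control (47.4%, against 7.29% of all genes). In 1 every SE library lay below (5.26%, against 8.20%), and the median log2 fold change was 0.28. At an unadjusted p under 0.05 in the quasi-likelihood test, 11 were higher and 1 lower. The likelihood ratio test called 3 higher, and DESeq2 called 3 higher and 1 lower. Tsc22d3 stood at 64.2, 68.0 and 68.7 CPM in the controls and 92.5, 103 and 98.7 CPM after SE, a log2 fold change of 0.55 ± 0.06 (adjusted p = 0.0349). The groups did not overlap.

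The metallothionein genes Mt1 and Mt2, whose products bind zinc and copper, went the same way. Mt1 stood at 149, 186 and 185 CPM in controls and 234, 236 and 246 CPM after SE (log2 fold change 0.46 ± 0.09, adjusted p = 0.168). Mt2 stood at 97.7, 122 and 129 CPM in controls and 159, 170 and 173 CPM after SE (0.53 ± 0.09, adjusted p = 0.163). For both genes, the lowest SE library was higher than the highest control, and the likelihood ratio test and DESeq2 called both.

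Other targets were at lower levels or spread more. Hif3a, which encodes an inhibitory HIF subunit, was at 2.76, 6.20 and 4.72 CPM in controls and 8.13, 10.5 and 8.98 CPM after SE (1.03 ± 0.26, adjusted p = 0.330). Sgk1, a kinase gene, reached 141 CPM in SE replicate 3, the library with choroid plexus, against 86.9 and 92.1 CPM in the other SE libraries and 52.9 to 81.9 CPM in controls. Without that library its log2 fold change was 0.37 in place of 0.62. Fkbp5, the cochaperone that feeds back on the receptor, overlapped between groups (0.19 ± 0.08). Of the receptors, Nr3c1 overlapped (-0.10 ± 0.10), and Nr3c2, the mineralocorticoid receptor of hippocampal neurons, was at 185, 187 and 215 CPM in controls and 162, 162 and 149 CPM after SE (-0.31 ± 0.07, adjusted p = 0.273). At 36 h, the log2 fold change was -0.09 for Tsc22d3, -0.03 for Mt1 and -0.13 for Mt2. Tsc22d3 was higher at 120 h than at 36 h by 0.64 (adjusted p = 0.0217) and Mt2 by 0.66 (adjusted p = 0.0372). The Tsc22d3 difference was lost in some fits without 1 SE library, given at the end. Such fits are not given for Mt2.

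Rbm3 and Cirbp encode RNA-binding proteins that accumulate when temperature falls. Rbm3 stood at 49.2, 45.2 and 47.7 CPM in controls and 82.0, 79.3 and 65.2 CPM after SE. Its log2 fold change of 0.67 ± 0.09 missed the threshold with all 6 libraries (adjusted p = 0.0608), and passed it at 0.76 without SE replicate 3, its lowest SE library (adjusted p = 0.0201). Cirbp stood at 55.6, 59.6 and 58.0 CPM in controls and 85.7, 79.0 and 66.8 CPM after SE (0.42 ± 0.09, adjusted p = 0.233). The same library was thus the lowest of the SE group for both genes. Rbm3 was higher at 120 h than at 36 h by 0.84 (adjusted p = 0.0104). In the same quasi-likelihood test that call was lost without replicate 2 of 36 h (adjusted p = 0.0561). It was also lost without replicate 1 or 2 of 120 h (0.0782 and 0.0533). Among the 32 cold-inducible and splicing genes as a whole, 4 had every SE library above every control (12.5%, against 7.29% of all genes). The median was 0.04. Without SE replicate 3, 10 of the 32 lay above, 31.2% against 13.0% of all genes.

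Heat shock protein genes lay below the controls. All 22 cytosolic members had a negative log2 fold change, and in 15 of them every SE library lay below every control (68.2%, against 8.20% of all genes tested). The median was small, -0.16. None passed the quasi-likelihood test, while 12 had an unadjusted p below 0.05, and the likelihood ratio test called 1 and DESeq2 called 4.

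Hsph1, encoding the HSP110 nucleotide exchange factor, stood at 411, 442 and 396 CPM in controls and 322, 313 and 334 CPM after SE (-0.37 ± 0.06, adjusted p = 0.144). Hspa8, the constitutive HSC70, was at 1049, 1201 and 1060 CPM in controls and 913, 919 and 904 CPM after SE (-0.27 ± 0.07, adjusted p = 0.328). Chordc1, a cochaperone of HSP90, was at 60.4, 68.7 and 65.8 CPM in controls and 49.3, 51.6 and 54.3 CPM after SE (-0.33 ± 0.07, adjusted p = 0.247). In all 3 genes the groups were separate. Stip1, which links HSP70 to HSP90, lay at -0.31 ± 0.08, Hsp90aa1 at -0.22 ± 0.07 and Ahsa1 at -0.16 ± 0.04.

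Of 26 chaperone and stress genes of the ER, 6 had every SE library below every control (23.1%, against 8.20% of all genes). In 2 every SE library lay above (7.69%, against 7.29%), and the median was -0.06. With SE replicate 3 left out, 13 had both remaining SE libraries below every control, 50.0% against 13.2% of all genes in that comparison, and the median was -0.12. None passed the quasi-likelihood test, 7 lower and 2 higher had an unadjusted p below 0.05, and the likelihood ratio test called 1 lower and DESeq2 3.

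Calr, the gene of the calcium-binding chaperone calreticulin, stood at 460, 507 and 467 CPM in controls and 364, 361 and 384 CPM after SE (-0.37 ± 0.06, adjusted p = 0.144). Sel1l, of the ER degradation machinery, was at 213, 220 and 227 CPM in controls and 182, 183 and 184 CPM after SE (-0.26 ± 0.05, adjusted p = 0.168). Both genes had separate groups. Hsp90b1, encoding GRP94, lay at -0.32 ± 0.09 and Pdia6, a disulfide isomerase gene, at -0.30 ± 0.09. Hspa5, the gene of the master ER chaperone BiP, was at 259, 315 and 279 CPM in controls and 230, 221 and 295 CPM after SE, so SE replicate 3 overlapped the controls.

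Against the same controls, the 36 h log2 fold change was 0.27 for Calr, 0.16 for Hsp90b1, 0.28 for Pdia6 and 0.41 for Hspa5, and the median of the 26 genes was 0.16. The mean log2 CPM of the ER list at 36 h was 6.09 and 6.02 in replicates 1 and 2, the libraries with choroid plexus, and 5.82 in replicate 3, which lay within the 5.77 to 5.89 of the controls. The part of choroid plexus in the 36 h values was not tested. Calr was lower at 120 h than at 36 h by 0.64 on the log2 scale (a difference of -0.64, adjusted p = 0.00606). The differences of -0.48 for Hsp90b1 and -0.58 for Pdia6 did not pass (adjusted p = 0.119 for both). For cytosolic chaperones the 36 h median was -0.04.

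**Figure D3:**
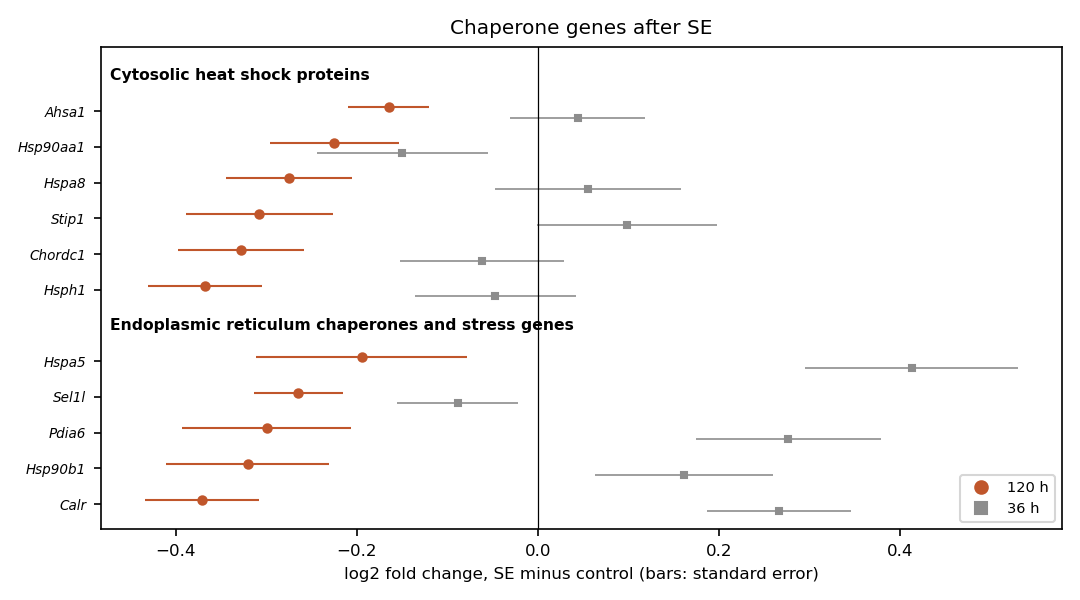
Log2 fold change of SE over control with its standard error for named cytosolic heat shock and ER chaperone genes (other members not plotted) at 120 h (orange circles) and 36 h (grey squares). Every cytosolic gene plotted lies left of 0 at 120 h, and Calr lies at -0.37 at 120 h and 0.27 at 36 h.

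Start regions are shown for 5 chaperone genes whose SE libraries all lay below the controls. Capitals mark the core of the heat shock element (GAANNTTC, its own reverse complement) in Hsph1 and Chordc1 and the ER stress element (CCAAT and CCACG with 9 bases between them, either strand) in Calr, Hsp90b1 and Pdia6. Positions are Hsph1 at chr5:149636287-149636586, minus strand, Chordc1 at chr9:18292017-18292316, plus strand, Calr at chr8:84846882-84847181, minus strand, Hsp90b1 at chr10:86705395-86705694, minus strand, and Pdia6 at chr12:17266339-17266638, plus strand, again RefSeq on GRCm38.p6.
Hsph1: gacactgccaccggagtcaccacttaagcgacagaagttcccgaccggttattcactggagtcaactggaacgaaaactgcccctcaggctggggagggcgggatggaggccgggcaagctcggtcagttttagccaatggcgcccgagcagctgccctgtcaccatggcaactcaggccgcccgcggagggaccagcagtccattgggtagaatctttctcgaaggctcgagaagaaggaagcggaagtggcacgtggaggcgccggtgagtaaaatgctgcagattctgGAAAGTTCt
Chordc1: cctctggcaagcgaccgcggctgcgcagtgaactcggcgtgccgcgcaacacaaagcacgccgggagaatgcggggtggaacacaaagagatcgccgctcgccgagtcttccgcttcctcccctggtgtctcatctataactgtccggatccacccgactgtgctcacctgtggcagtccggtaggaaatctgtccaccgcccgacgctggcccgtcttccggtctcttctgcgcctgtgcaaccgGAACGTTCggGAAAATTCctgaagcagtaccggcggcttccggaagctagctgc
Calr: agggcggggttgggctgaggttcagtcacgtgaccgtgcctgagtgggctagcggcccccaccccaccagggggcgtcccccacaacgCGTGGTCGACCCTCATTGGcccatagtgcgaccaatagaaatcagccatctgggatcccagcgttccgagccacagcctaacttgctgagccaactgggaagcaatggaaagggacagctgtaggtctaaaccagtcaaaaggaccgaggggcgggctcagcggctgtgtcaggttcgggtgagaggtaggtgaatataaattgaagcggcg
Hsp90b1: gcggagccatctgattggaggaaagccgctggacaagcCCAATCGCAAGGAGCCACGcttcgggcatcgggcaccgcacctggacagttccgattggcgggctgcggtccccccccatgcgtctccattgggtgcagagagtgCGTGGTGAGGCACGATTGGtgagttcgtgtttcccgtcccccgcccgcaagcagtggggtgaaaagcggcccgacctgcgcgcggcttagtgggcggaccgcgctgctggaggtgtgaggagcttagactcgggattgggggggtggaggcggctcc
Pdia6: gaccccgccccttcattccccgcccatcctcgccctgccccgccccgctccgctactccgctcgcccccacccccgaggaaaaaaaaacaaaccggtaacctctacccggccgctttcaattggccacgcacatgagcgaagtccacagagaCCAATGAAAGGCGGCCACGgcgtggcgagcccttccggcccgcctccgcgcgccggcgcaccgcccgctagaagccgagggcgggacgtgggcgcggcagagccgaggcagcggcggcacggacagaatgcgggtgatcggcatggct

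The heat shock core was in 10 of the 17 cytosolic members that matched an entry and in 7.86% of all 32851 start regions. The ER stress element was in 8 of 22 matched ER members, Calr, Canx, Creld2, Dnajc3, Hsp90b1, Hspa5, Pdia6 and Syvn1, and in 0.119% of all start regions. Chordc1 held 2 heat shock cores that lay side by side across the gene start, and Hsp90b1 held 2 ER stress elements. A gene was counted if any of its start regions held the sequence, whereas the share over all is of single start regions, so the units differ.

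Homer1 was the postsynaptic scaffold gene that fell. It stood at 92.9, 87.2 and 97.6 CPM in the controls and 61.7, 60.7 and 62.2 CPM in the SE libraries. The SE values lay close together and all under the controls. The log2 fold change was -0.59 ± 0.06 (adjusted p = 0.0246), and the counts do not separate the long scaffold form from the short activity-induced form Homer1a.

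Of 26 tested postsynaptic scaffold genes, 11 had every SE library below every control (42.3%, against 8.20% of all genes) and none above. In this list 22 had a negative log2 fold change, and the median was -0.12. Apart from Homer1 no scaffold gene passed the quasi-likelihood test, and the list had 7 genes lower at an unadjusted p under 0.05, 1 called by the likelihood ratio test and 2 by DESeq2. Shank1, a master scaffold of the spine, was at 347, 371 and 460 CPM in controls and 303, 288 and 311 CPM after SE (-0.39 ± 0.10, adjusted p = 0.344). Dlg2, encoding PSD-93, was at 208, 244 and 220 CPM in controls and 194, 187 and 191 CPM after SE (-0.23 ± 0.07, adjusted p = 0.352). Shank3 lay at -0.25 ± 0.07. Dlg4, encoding PSD-95, lay at -0.12 ± 0.07, also with every SE library under the controls.

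**Figure D4:**
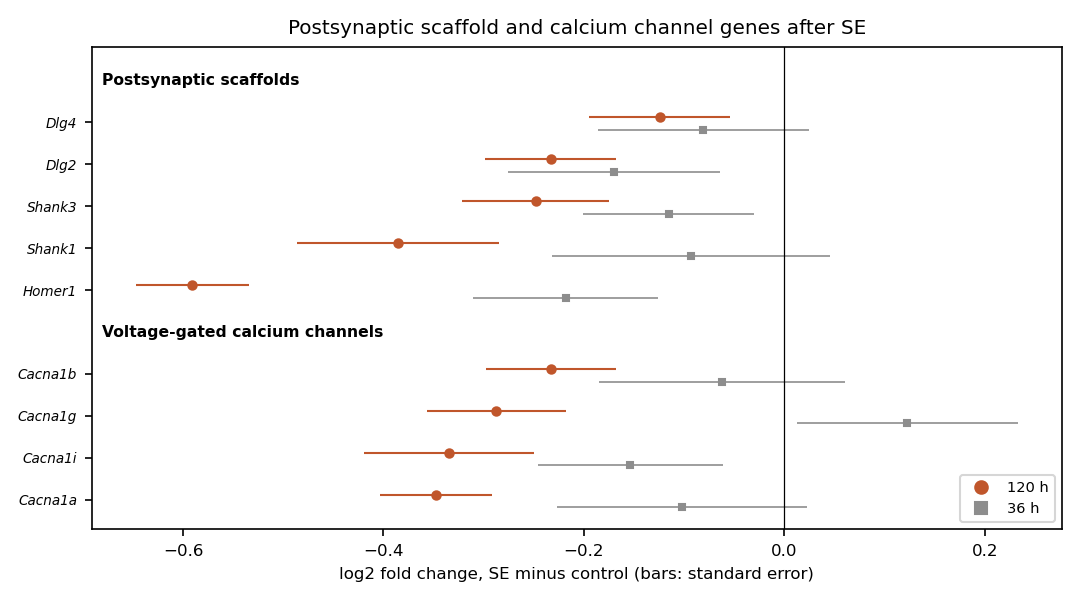
Log2 fold change of SE over control with its standard error for named postsynaptic scaffold and voltage-gated calcium channel genes (other members, some of them above 0, not plotted) at 120 h (orange circles) and 36 h (grey squares). Of the genes plotted, Homer1 lies farthest left among the scaffolds at -0.59 and Cacna1a among the channels at -0.35.

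Among 40 synaptic adhesion and organizer genes, 8 had every SE library below every control (20%, against 8.20% of all genes). In 1 every SE library lay above, and 2 passed the test. Mdga1, whose product masks neuroligins from neurexins, stood at 110, 102 and 105 CPM in controls and 71.9, 72.4 and 78.4 CPM after SE (-0.51 ± 0.06, adjusted p = 0.0349). Khdrbs3, whose product SLM2 directs splicing of neurexin transcripts, stood at 240, 233 and 233 CPM in controls and 178, 170 and 163 CPM after SE (-0.47 ± 0.05, adjusted p = 0.0349). Both genes had tight and separate groups. The neuroligin gene Nlgn1 lay at -0.13 ± 0.06. Lrrtm4, a postsynaptic organizer prominent in dentate granule cells, was the member on the other side, at 42.0, 32.7 and 38.5 CPM in controls and 49.0, 47.5 and 45.1 CPM after SE (0.32 ± 0.10, adjusted p = 0.367).

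On the presynaptic side, 11 of 50 vesicle and active zone genes had every SE library below every control (22.0%, against 8.20% of all genes). No member lay above, and the median was -0.09. None passed the quasi-likelihood test, 6 were lower at an unadjusted p below 0.05, the likelihood ratio test called 0 and DESeq2 called 1. Pclo, encoding the giant scaffold piccolo, was at 280, 316 and 292 CPM in controls and 242, 236 and 267 CPM after SE (-0.25 ± 0.07, adjusted p = 0.352). Syt4 lay at -0.21 ± 0.06, Unc13a, which primes vesicles, at -0.19 ± 0.07, and Sv2b at -0.37 ± 0.11. Syt1, the calcium sensor of fast release, overlapped between groups at 1340 to 1584 CPM.

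Grm2, a presynaptic group II glutamate receptor of dentate granule cells, was at 54.7, 46.5 and 52.3 CPM in controls and 62.1, 64.6 and 70.2 CPM after SE (0.36 ± 0.08, adjusted p = 0.265). Its groups did not overlap. Of the NMDA receptor subunits, Grin2b was at 645, 746 and 811 CPM in controls and 625, 573 and 596 CPM after SE (-0.30 ± 0.09, adjusted p = 0.367), Grin2a overlapped (-0.47 ± 0.19) and Grin1 overlapped (-0.05 ± 0.06). Among the AMPA receptor subunits Gria1 lay at -0.17 ± 0.07 and Gria2 at -0.04 ± 0.06. In all, 5 of 27 ionotropic and auxiliary genes had every SE library below every control (18.5%, against 8.20% of all genes) and none above.

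GABA genes were near the background in both directions, with 3 of 24 above (12.5%) and 1 below (4.17%). Gabra2 was the one below, at 72.1, 70.0 and 68.4 CPM in controls and 57.3, 47.3 and 56.9 CPM after SE (-0.38 ± 0.08, adjusted p = 0.233). Gabrd and Gabra4, subunits of the tonic current of granule cells, and Abat, the enzyme that breaks GABA down, were the 3 above, at 0.39 ± 0.16, 0.19 ± 0.07 and 0.15 ± 0.06. The synthesizing enzymes Gad1 (0.09 ± 0.10) and Gad2 (0.09 ± 0.17) overlapped.

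In 8 of 15 voltage-gated calcium channel genes every SE library lay under every control (53.3%, against 8.20% of all genes). None lay above (7.29% of all genes), and the median was -0.16. No member passed the quasi-likelihood test, and 6 were lower at an unadjusted p below 0.05 (5.06% of all genes). The likelihood ratio test and DESeq2 called 1 each, against 0.250% and 0.631% of all genes called lower. Cacna1a, the P/Q-type pore subunit of presynaptic release, stood at 172, 182 and 189 CPM in controls and 135, 147 and 145 CPM after SE (-0.35 ± 0.06, adjusted p = 0.130). Cacna1i, a T-type subunit, was at 69.5, 81.0 and 73.2 CPM in controls and 61.2, 53.0 and 63.5 CPM after SE (-0.33 ± 0.09, adjusted p = 0.325), and Cacna1g, another T-type subunit, lay at -0.29 ± 0.07. The N-type gene Cacna1b lay at -0.23 ± 0.06. Without SE replicate 3 the count was again 8 of 15 below and the median -0.13.

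Genes of calcium stores and calcium-dependent enzymes showed 11 of 45 below (24.4%) and 3 above (6.67%), against 8.20% and 7.29% of all genes. Hpca, the calcium sensor hippocalcin of pyramidal cells, stood at 2335, 2194 and 2263 CPM in controls and 1849, 1827 and 1857 CPM after SE (-0.30 ± 0.06, adjusted p = 0.191). Slc8a1, a sodium-calcium exchanger, was at 36.0, 46.5 and 39.8 CPM in controls and 29.0, 25.1 and 29.7 CPM after SE (-0.54 ± 0.11, adjusted p = 0.221). The release channel genes Ryr2 (-0.29 ± 0.07) and Itpr1 (-0.30 ± 0.09), the store sensor Stim2 (-0.26 ± 0.07) and the cyclase Adcy9 (-0.27 ± 0.07) each had separate groups. Potassium channel genes had shares near the background, 5 of 67 below (7.46%) and 4 above (5.97%). Kcnma1, the BK channel gene, overlapped between groups (-0.29 ± 0.11).

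Immediate-early genes are the first to be switched on by neuronal firing. Fos stood at 20.4, 5.93 and 7.53 CPM in controls and 12.7, 28.1 and 10.1 CPM after SE, Arc at 200, 79.7 and 150 and at 135, 255 and 109, and Npas4 at 21.2, 5.38 and 8.85 and at 15.7, 20.9 and 7.00. In each of these the groups overlapped, with control replicate 1 and SE replicate 2 the high libraries. Of 29 such genes 2 lay above and 2 below without overlap (6.90% each way), near the 7.29% and 8.20% of all genes. Gadd45g, a gene of the growth arrest family, was one of the former, at 14.8, 14.6 and 10.5 CPM in controls and 21.3, 20.1 and 21.1 CPM after SE (0.65 ± 0.14, adjusted p = 0.229).

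Of 22 later effectors of activity, 8 had every SE library below every control (36.4%, against 8.20% of all genes) and 1 above. Besides Homer1 these included Nptx2, a secreted pentraxin that clusters AMPA receptors, at 41.2, 34.2 and 39.4 CPM in controls and 30.2, 27.9 and 26.6 CPM after SE (-0.44 ± 0.09, adjusted p = 0.233), Inhba, the activin A subunit, at -1.03 ± 0.28 from 2.21 to 3.58 CPM in controls, Vgf at -0.32 ± 0.09 and Scg2 at -0.26 ± 0.07. Neuropeptides and granins, which share Vgf and Scg2 with that list, had 9 of 33 below (27.3%) and 3 above (9.09%). Those shares were 8.20% and 7.29% over all genes. Among the lower members were Chgb at -0.25 ± 0.06 and Cck at -0.26 ± 0.08. Npy overlapped between groups, at 49.8 to 62.2 CPM. Of the ERK pathway targets, Etv5 was at 76.4, 71.1 and 85.3 CPM in controls and 55.2, 61.3 and 56.7 CPM after SE (-0.43 ± 0.08, adjusted p = 0.163) and Etv4 lay at -0.49 ± 0.12. Dusp6, the ERK phosphatase, overlapped (-0.35 ± 0.14).

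Sema3e was the guidance gene that fell. It stood at 83.8, 92.1 and 87.9 CPM in controls and 61.2, 54.2 and 63.2 CPM after SE (-0.56 ± 0.07, adjusted p = 0.0472), while its receptor gene Plxnd1 overlapped between groups (0.16 ± 0.11). Epha6, an ephrin receptor, was at 55.5, 59.1 and 66.1 CPM in controls and 33.6, 39.0 and 39.7 CPM after SE (-0.69 ± 0.09, adjusted p = 0.0608). Robo1, a Slit receptor, lay at -0.42 ± 0.09 (adjusted p = 0.221) and Plxna1 at -0.27 ± 0.06. Over all 65 guidance genes, 7 lay below (10.8%) and 4 above (6.15%), close to the shares of all genes.

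Cldn5 fell in every SE library. It stood at 28.4, 22.9 and 22.9 CPM in the controls and 13.5, 13.3 and 13.7 CPM after SE, a log2 fold change of -0.87 ± 0.11 (adjusted p = 0.0461). Of the 34 tested endothelial genes, Cldn5 among them, 3 lay above (8.82%) and 2 below (5.88%), and the median was 0.08. Over all genes the shares were 7.29% and 8.20%. Pecam1, a general endothelial marker, was at 12.2 to 15.3 CPM in all 6 libraries (-0.08 ± 0.12), Cdh5 overlapped (-0.35 ± 0.17), and Slc2a1, the glucose transporter of the barrier, lay on the other side at 0.26 ± 0.06. Flt1, a VEGF receptor, was at 45.3, 41.8 and 44.3 CPM in controls and 32.7, 29.6 and 40.4 CPM after SE (-0.36 ± 0.11, adjusted p = 0.377).

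Of 41 basement membrane and collagen genes 4 lay below (9.76%) and 1 above (2.44%), against 8.20% and 7.29% of all genes. Of the 41, 22 had a positive log2 fold change, and the median was 0.04, or -0.08 without SE replicate 3. None passed the quasi-likelihood test, 4 lower and 2 higher had an unadjusted p below 0.05, and 0 were called in the likelihood ratio test and 1 lower by DESeq2. Outside that list, Vegfa, the vascular growth factor, was at 77.5, 85.9 and 72.6 CPM in controls and 53.3, 54.5 and 59.99 CPM after SE (-0.49 ± 0.08, adjusted p = 0.125). Mmp14, a membrane matrix metalloproteinase, was at 22.3, 21.6 and 23.4 CPM in controls and 12.0, 12.8 and 15.2 CPM after SE (-0.76 ± 0.11, adjusted p = 0.0864), and was lower than at 36 h (difference -0.85, adjusted p = 0.0217). Both genes had separate groups. The Mmp14 difference from 36 h was lost in the quasi-likelihood test without replicate 1 or 2 of 36 h (adjusted p = 0.0667 and 0.0631). It was also lost without replicate 1 or 2 of 120 h (0.147 and 0.123). The basement membrane collagens Col4a1 and Col4a2 lay at -0.37 ± 0.10 and -0.34 ± 0.09, with 36 h values of 0.09 and 0.18. At 36 h the mean log2 CPM of this list was 4.51 and 4.42 in the libraries with choroid plexus and 3.75 in the other. Among mural cell genes, control replicate 1 held 44.3 CPM of Acta2 and 27.3 CPM of Myh11, against 9.59 to 13.6 and 5.96 to 9.98 in the other 5 libraries. In bulk tissue a lower level of a cell type's genes cannot be told apart from fewer cells of that type.

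Pdzd2, a PDZ domain gene of the granule cell list, rose from 44.7, 44.9 and 51.2 CPM in controls to 84.4, 69.7 and 83.0 CPM after SE (0.75 ± 0.09, adjusted p = 0.0461). Of 20 dentate granule cell genes 6 lay above without overlap (30.0%, against 7.29% of all genes) and none below, with a median of 0.22. The list included Dsp, encoding desmoplakin, at 42.6, 34.7 and 55.3 CPM in controls and 71.2, 68.1 and 69.2 CPM after SE (0.65 ± 0.14, adjusted p = 0.260) and Fam163b at 139, 120 and 150 and at 187, 182 and 182 CPM (0.43 ± 0.08, adjusted p = 0.163). Prox1, the defining factor of granule cells, overlapped (0.21 ± 0.11).

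Of 21 genes of CA1 and subicular pyramidal cells 19 had a negative log2 fold change, and the median was -0.21. In this list 5 lay below without overlap (23.8%, against 8.20% of all genes) and none above. Neurod6, a transcription factor of pyramidal neurons, was at 259, 230 and 254 CPM in controls and 197, 195 and 183 CPM after SE (-0.37 ± 0.06, adjusted p = 0.144). Wfs1, a CA1 marker, spread from 78.7 to 178 CPM over the 6 libraries with no separation (0.05 ± 0.33), and Fibcd1 overlapped as well (-0.27 ± 0.15). The CA3 and CA2 list had 2 of 21 below (9.52%) and 1 above (4.76%), near the 8.20% and 7.29% of all genes. No CA1 gene passed the quasi-likelihood test, 6 were lower at an unadjusted p below 0.05, and the likelihood ratio test called 1 and DESeq2 3.

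Of 29 neurogenesis and proliferation genes 24 had a positive log2 fold change and 6 lay above without overlap (20.7%, against 7.29% of all genes). No member lay below, and the median was 0.12. Dcx, the marker of migrating neuroblasts, was at 25.5, 25.3 and 22.0 CPM in controls and 31.0, 30.8 and 30.6 CPM after SE (0.34 ± 0.08, adjusted p = 0.302). Eomes, a factor of intermediate progenitors, was low at 1.06, 1.10 and 2.65 CPM in controls and 3.17, 5.79 and 3.61 CPM after SE (1.39 ± 0.39, adjusted p = 0.352). Sox4 and Sox11 lay at 0.33 ± 0.09 and 0.31 ± 0.10, while Mki67 of dividing cells overlapped (0.37 ± 0.22). None of the 29 passed the quasi-likelihood test, 6 were higher at an unadjusted p below 0.05, and the likelihood ratio test and DESeq2 called 0.

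Gfap, the filament gene of astrocytes, stood at 435, 437 and 470 CPM in controls and 470, 706 and 509 CPM after SE (0.33 ± 0.14, adjusted p = 0.491), with SE replicate 2 well above the rest, and its 36 h value was 1.37. Serpina3n, a reactive astrocyte gene, was at 85.1, 76.3 and 82.6 CPM in controls and 64.0, 72.3 and 76.7 CPM after SE, and was lower than at 36 h (difference -1.0004, adjusted p = 0.00606). C4b likewise was lower than at 36 h (difference -0.90, adjusted p = 0.0389). How these differences depend on single libraries is not given for Serpina3n or C4b. The median of 27 reactive astrocyte genes was 0.08 at 120 h and 0.74 at 36 h. At 120 h, 5 of the 27 lay above without overlap (18.5%, against 7.29% of all genes). Below lay 1 (3.70%, against 8.20%). Over all 32 listed reactive astrocyte genes, the mean log2 CPM at 36 h was 3.18 and 2.81 in the libraries with choroid plexus and 2.63 in the other, against 1.99 to 2.05 in controls. In the 120 h SE libraries this mean was 2.125, 2.22 and 2.35 in replicates 1, 2 and 3, all above the controls. The microglial genes Cx3cr1 (-0.16 ± 0.10) and Csf1r (0.04 ± 0.07) overlapped between groups, and Il34, the neuronal ligand of CSF1R, was at 63.7, 59.5 and 53.8 CPM in controls and 42.1, 45.3 and 45.5 CPM after SE (-0.41 ± 0.08, adjusted p = 0.177). Of 28 myelin genes none had separate groups, and Mbp, encoding myelin basic protein, lay at 0.05 ± 0.17.

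Of 26 oxidative stress genes 6 lay above without overlap (23.1%) and 2 below (7.69%), against 7.29% and 8.20% of all genes. Txnip, an inhibitor of thioredoxin, was at 22.8, 22.3 and 19.6 CPM in controls and 27.6, 30.4 and 29.6 CPM after SE (0.44 ± 0.09, adjusted p = 0.221). Nfe2l2, encoding the antioxidant regulator NRF2, was at 14.3, 15.1 and 15.002 CPM in controls and 17.8, 21.6 and 23.3 CPM after SE (0.50 ± 0.11, adjusted p = 0.287). Both had separate groups. Ucp2, the uncoupling protein gene, read 16.7, 20.5 and 54.4 CPM after SE against 14.2 to 16.7 in controls, so its log2 fold change of 0.94 was 0.24 without SE replicate 3.

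Acsl4, which loads arachidonate into membrane lipids, was at 93.9, 81.3 and 81.5 CPM in controls and 70.0, 66.5 and 73.2 CPM after SE (-0.29 ± 0.07, adjusted p = 0.302), and Gpx4, which repairs lipid peroxides, overlapped (0.07 ± 0.06). Of 36 cholesterol genes 6 lay below (16.7%) and 2 above (5.56%), against 8.20% and 7.29% of all genes. Srebf2, the transcriptional regulator of the pathway, lay at -0.19 ± 0.06. Sc4mol, a sterol oxidase gene, lay at -0.22 ± 0.06 and was lower than at 36 h (difference -0.60, adjusted p = 0.00706). The lysosomal genes Npc2 and Lamp2 read 90.4 and 89.1 CPM in SE replicate 3, and their log2 fold changes of 0.34 and 0.25 were 0.21 and 0.09 without it.

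Of the 28 genes that the study's text names for 120 h, 27 were tested. Homer1 alone passed an adjusted p of 0.05 in the quasi-likelihood test. The study used more relaxed cutoffs for its pathway analyses than for its list of changed genes. A gene it names need not have passed this threshold there. In 15 of the 27 every SE library lay below every control and in 2 every SE library above. The shares over all genes were 8.20% and 7.29%. The likelihood ratio test called 4 of the 27, and 76 of all 15996 genes. The median log2 fold change of the 27 genes was -0.29. These genes were chosen by the study on the same samples, so the counts are not independent evidence of their direction.

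**Figure D5:**
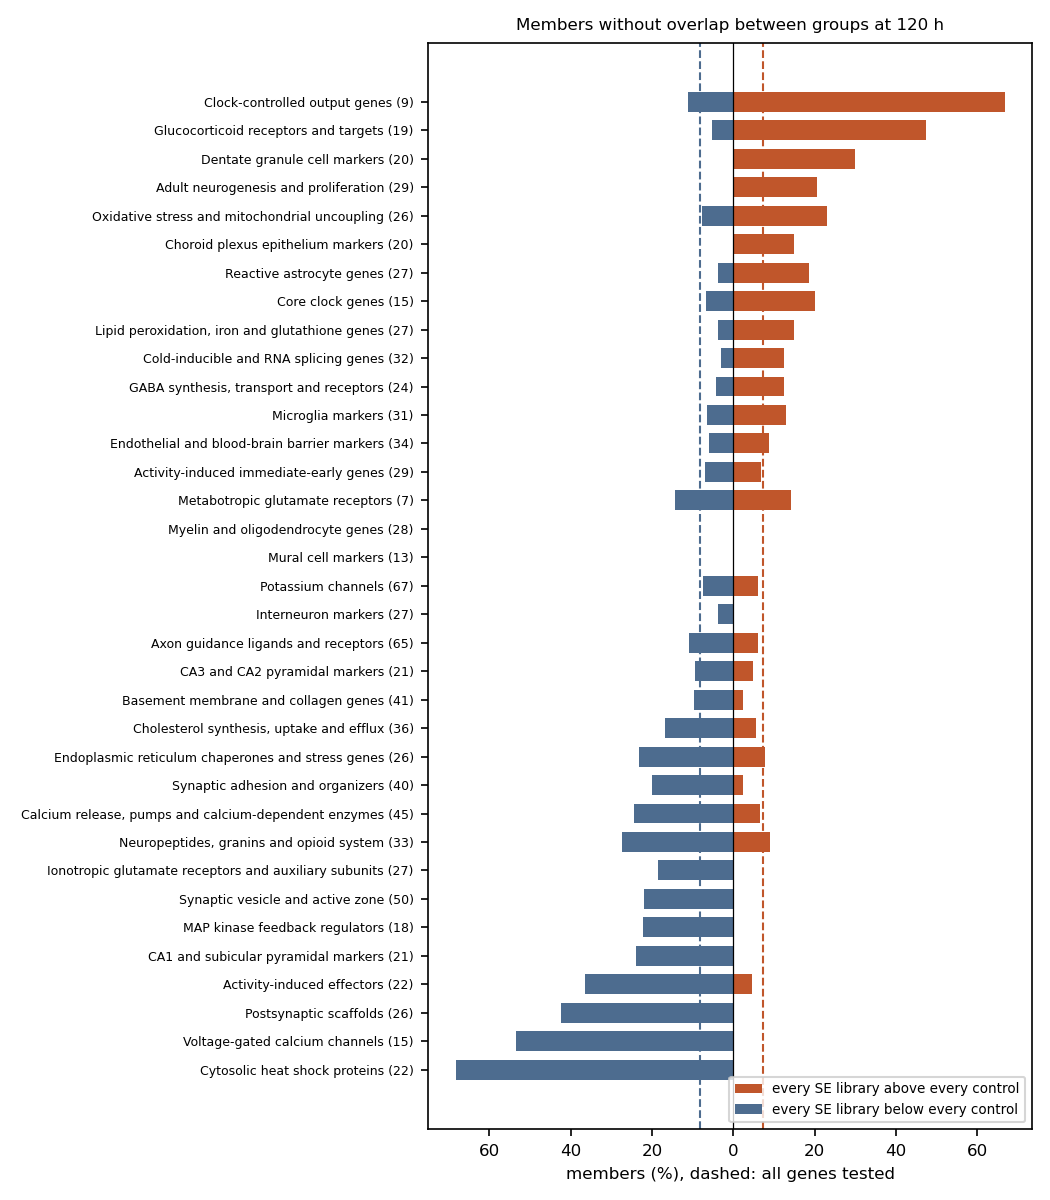
Share of the tested members of each gene list (number in brackets) whose SE libraries all lay above every control (orange, right) or all below (blue, left) at 120 h, in percent. Dashed lines mark the shares over all genes tested, 7.29% above and 8.20% below. Clock output genes reach 66.7% above and cytosolic heat shock genes 68.2% below.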

How the data were processed

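The mRNA libraries of 3 SE mice of 120 h and 3 controls were analysed, and the 3 SE libraries of 36 h served as values beside them. The authors demultiplexed reads with bcl2fastq, aligned them with HISAT2 2.1.0 to NCBIM37 and deposited raw counts per Ensembl gene from HTSeq, 1 column per library. Of 43629 identifiers, 33068 were named from GENCODE M1 and the rest kept their identifiers. Counts were filtered by filterByExpr, scaled by TMM and tested with edgeR 4.0.16 (quasi-likelihood, Benjamini-Hochberg over 15996 genes, threshold 0.05). The likelihood ratio test, DESeq2 1.42.0 and other settings were alternatives. The code was tested on simulated data. No gene set was tested: lists are described by counts and medians. Named genes were those past the threshold, the 12 with the smallest p in each direction without overlap, those the study names for 120 h, the lead genes of each list with up to 5 members of smallest p, up to 10 genes each way with the largest change called by both other tests, and Xist and Ddx3y. Members and lists were chosen with earlier results of these data known. Nothing in the labels says more of how replicates were made, so p-values measure the spread between these libraries. No libraries agreed within sampling noise (chi-square per degree of freedom 6.75 to 37.3). Some results are not reported here.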

Additional observations from a re-analysis of the deposited data

Results flagged for a closer look

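Of the 9 genes called at 120 h, 3 had an effect that differed between 120 h and 36 h by a direct test of the SE libraries of the 2 times (edgeR's quasi-likelihood test, adjusted over all genes tested). Dbp was higher at 120 h by 1.47 on the log2 scale (adjusted p = 6.28e-05), Nr1d1 by 0.98 (adjusted p = 0.00606) and Tsc22d3 by 0.64 (adjusted p = 0.0217). The Tsc22d3 difference was lost without replicate 2 of 36 h (adjusted p = 0.0744) and without replicate 1, 2 or 3 of 120 h (0.0911, 0.116 and 0.0803), while Dbp and Nr1d1 passed in each of these fits. Each had all 3 SE libraries of 120 h above the controls and a 36 h value below 0.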

How the results depend on the processing

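The 9 calls at 120 h (4 higher, 5 lower) depended on the test and on single libraries. The numbers higher and lower were 36 and 40 by the likelihood ratio test, 43 and 101 by DESeq2, 23 and 29 with no filter on low counts, 1 and 0 with the 9 libraries of 36 h, 120 h and their controls in 1 fit, and 2 and 0 when the choroid plexus score entered the fit. They were 0 and 0 with all 19 libraries in 1 quasi-likelihood fit, where 271 genes were higher and 285 lower at an unadjusted p under 0.05. RLE normalization gave 4 and 5 again, with the same 9 genes. Sex as listed by the study, used as a covariate, gave 4 and 5 as well, but Pdzd2 and Cldn5 were lost and Rbm3 and Vegfa gained. This covariate codes control replicate 3 as male, unlike its Xist and Ddx3y reads, so it does not adjust for the sex those reads show. Leaving out 1 library at a time gave 1 to 2 higher and 0 to 1 lower. With a replicate block the numbers were 1 and 0, but libraries share only a number: deviations of same-numbered libraries correlated at 0.21, -0.24 and 0.00036. Of 15 alternatives, Dbp kept its call in 14, Homer1 and Nr1d1 in 6, Cldn5 in 4 and the other 5 called genes in 5 each.

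Of 130 named genes, 117 kept their sign in every alternative. Ttr turned to -0.47 once the choroid plexus score was a covariate. When libraries were left out in turn, the log2 fold change ranged from -0.61 (without SE replicate 3) to 5.92 for Ttr, from -1.25 to 0.025 for Myh11 and -1.20 to 0.27 for Acta2 (both positive without control replicate 1), from -0.0026 to 1.34 for Fos, -0.24 to 0.54 for Arc, -0.070 to 1.03 for Npas4, -0.18 to 0.0089 for Nr3c1, -0.028 to 0.14 for Gad1, -0.19 to 0.22 for Gad2, -0.020 to 0.074 for Csf1r, -0.14 to 0.21 for Mbp, -0.074 to 0.011 for Per2 and -0.33 to 0.47 for Wfs1. The median of the glucocorticoid list was 0.15 without control replicate 1, that of the vesicle list -0.05 without control replicate 2, that of the reactive astrocyte list 0.21 without control replicate 1 and -0.03 without control replicate 3, and that of the neurogenesis list 0.21 without control replicate 1. The cause of these changes was not tested.

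Of the 9 called genes, 3 differed between 120 h and 36 h, 7 by the likelihood ratio test, 3 with the choroid plexus covariate, and 2 to 4 when 1 SE library was left out; these alternatives were chosen after seeing the data. Tsc22d3 lost this call in 4 of the 6 fits without 1 SE library (adjusted p up to 0.116), and Dbp and Nr1d1 kept it in all 6. The 6 libraries of 120 h and control held 14271801 to 22140681 counts, and no detection limit was computed.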
